A study of Mus musculus with 38 samples.

Results

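The 63 genes described here are mostly those of plasma proteins that hepatocytes release into the blood. The genes were followed through segments of mouse liver that were defined by staining and collected for bile duct cells or for macrophages. They were chosen by gene symbol alone from the 10547 genes measured: apolipoproteins, serpins of the plasma clades, numbered coagulation factors, fibrinogen chains, inter-alpha-trypsin inhibitor heavy chains, and named carrier, fibrinolysis and complement genes. By role they were 8 carriers, 12 apolipoproteins, 15 clotting and fibrinolysis genes, 16 serpins, 5 inter-alpha-trypsin inhibitor heavy chains (Itih) and 7 complement genes. The symbol C5 was also asked for and no member carried it. The mouse gene of complement C5 has the symbol Hc, which is among the 61 other plasma protein genes set beside the members below.

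Hepatocytes make most of the protein of plasma, including albumin, the lipid-carrying apolipoproteins, the clotting factors and their serpin inhibitors, and the complement proteins. During inflammation the liver changes this output in the acute phase response: haptoglobin (Hp), hemopexin (Hpx), ceruloplasmin (Cp), fibrinogen, complement C3 and Serpina3n are known as positive acute phase products, whereas albumin (Alb), transthyretin (Ttr) and transferrin (Trf) are known in many species to go down. Several members are also made outside hepatocytes, among them Apoe and C4b by macrophages, C3 by epithelia, Serping1 by stromal cells, F8 by endothelium, and F3, which is tissue factor, a membrane protein and not a plasma protein.

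The livers were of WT mice or of TrailΔmye mice, in which Trail (Tnfsf10) was deleted with a Cre driven by the Lyz2 locus and therefore in cells of the myeloid lineage. Both genotypes received either control diet or the DDC diet, which obstructs small bile ducts, in alternation with chow over 21 days, and the experiment ended on day 22. Barcoded RNA probes were released by light from PanCK+ or IBA1+ segments of 23 regions of interest (ROIs), giving 38 segments: 16 periportal PanCK+ segments (3 WT control, 4 WT DDC, 4 TrailΔmye control, 5 TrailΔmye DDC), 15 periportal IBA1+ segments (2, 4, 4 and 5 in the same order) and 7 parenchymal IBA1+ segments (1, 2, 2 and 2). The labels name no animal, age or sex, so segments of a group can share an animal, and every p-value below measures the spread between segments and is smaller than one over animals would be.

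Total counts ranged from 20319 to 836971 per segment. PanCK+ totals were 23481 to 29510 in WT control and 46676 to 61665 in WT DDC. They were 35078 to 54834 in TrailΔmye control and 172180 to 836971 in TrailΔmye DDC. In periportal IBA1+ segments they were 26380 to 35207, 20319 to 34302, 80721 to 220381 and 158219 to 568719 in the same order. Totals thus separated the genotypes under both diets in both classes, and the diets in PanCK+ segments. Thinning to 1 total, given below, is the alternative that evens them. Of all values in the count table, 27.24% were exactly 1 and none was lower; 35 members were above 1 count in all 38 segments and 28 were at 1 count in 1 to 18 of them, so that a low value of the latter is a floor. TrailΔmye DDC ROI 35 stood apart, with the largest total and the smallest member share of its class in both of its segments. The negative probe, which names no gene, was at 5.15 (PanCK+) and 4.89 (IBA1+) per 100000 counts there. It was at 1.08 to 2.05 in the other TrailΔmye DDC periportal segments and at 1.08 to 5.17 over all 38 segments. Low member values were not set against this probe. The 10 cholangiocyte markers summed to 0.485% to 1.82% of counts in PanCK+ segments and at most 0.321% in IBA1+ segments, and the 10 macrophage markers to 0.313% to 0.868% in IBA1+ segments and at most 0.134% in PanCK+ segments. A further 15 hepatocyte genes whose products are not secreted were present in every segment class, at 0.230% to 1.53% of counts, so no class was free of hepatocyte RNA. The Y-linked target Gm21783 was at 1.00 to 5.47 counts per 100000 in all TrailΔmye control segments, at 14.5 to 76.5 in TrailΔmye DDC segments and at 10.1 to 102 in WT segments, while the labels give no sex. It therefore moved with the diet in TrailΔmye mice and with the genotype under control diet, and its part in those comparisons was not tested. In mixed segments fewer hepatocytes and less RNA per hepatocyte cannot be told apart.

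Promoters of 49 of the 63 members were listed in RefSeq, and 6 are shown because their genes carry the main patterns below: Alb and Serpina1a fell, the neighbouring fibrinogen genes Fga and Fgb fell together, and Hpx and C3 rose in some segment classes. Each is the 250 bases upstream of the transcript start, written 5′ to 3′ on the strand of the gene. Capitals mark matches on either strand to GTTAAT, the core letters of the site of the hepatocyte factor HNF1 (extended to GTTAATNAT where the longer form is met), or to TTNNGCAA, a C/EBP-type motif, and the matches do not overlap except that the long HNF1 form contains the shorter one.
Alb promoter, GRCm38.p6 chr5:90460620-90460869, plus strand: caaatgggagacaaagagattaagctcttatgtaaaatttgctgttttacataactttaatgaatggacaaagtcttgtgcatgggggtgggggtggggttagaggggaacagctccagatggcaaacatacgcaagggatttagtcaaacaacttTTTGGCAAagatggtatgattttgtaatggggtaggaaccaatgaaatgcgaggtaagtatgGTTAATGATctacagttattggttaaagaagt
Fga promoter, GRCm38.p6 chr3:83025903-83026152, plus strand: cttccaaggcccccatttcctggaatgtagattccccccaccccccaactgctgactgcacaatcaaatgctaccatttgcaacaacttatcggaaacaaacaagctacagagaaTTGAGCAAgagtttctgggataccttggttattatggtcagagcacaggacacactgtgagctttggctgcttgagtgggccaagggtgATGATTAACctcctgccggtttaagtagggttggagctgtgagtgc
Fgb promoter, GRCm38.p6 chr3:83049864-83050113, minus strand: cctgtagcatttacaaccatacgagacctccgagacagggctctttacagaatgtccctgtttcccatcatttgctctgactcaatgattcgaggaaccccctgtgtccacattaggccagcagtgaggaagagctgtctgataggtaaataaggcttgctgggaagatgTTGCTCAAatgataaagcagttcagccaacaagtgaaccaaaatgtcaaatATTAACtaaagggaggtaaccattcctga
Serpina1a promoter, GRCm38.p6 chr12:103863620-103863869, minus strand: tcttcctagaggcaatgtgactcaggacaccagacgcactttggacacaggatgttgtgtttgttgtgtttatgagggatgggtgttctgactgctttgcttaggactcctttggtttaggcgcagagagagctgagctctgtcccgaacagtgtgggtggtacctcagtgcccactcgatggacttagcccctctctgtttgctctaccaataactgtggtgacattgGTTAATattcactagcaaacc
Hpx promoter, GRCm38.p6 chr7:105600117-105600366, minus strand: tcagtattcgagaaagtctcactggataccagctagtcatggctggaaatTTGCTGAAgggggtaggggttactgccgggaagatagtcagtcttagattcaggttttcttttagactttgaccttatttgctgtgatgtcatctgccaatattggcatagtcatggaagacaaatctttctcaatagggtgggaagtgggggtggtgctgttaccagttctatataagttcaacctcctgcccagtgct
C3 promoter, GRCm38.p6 chr17:57228137-57228386, minus strand: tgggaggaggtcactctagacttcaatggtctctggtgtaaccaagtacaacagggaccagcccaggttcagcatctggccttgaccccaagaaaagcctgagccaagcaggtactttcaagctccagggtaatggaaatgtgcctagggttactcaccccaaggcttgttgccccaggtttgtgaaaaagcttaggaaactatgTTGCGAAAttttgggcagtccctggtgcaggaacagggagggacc
GTTAAT was held by 12 of the 49 members (24.49%) against 7.486% of 27025 genes with a promoter of the same length and 5.411% of the 8428 of them that were measured here. The longer GTTAATNAT was held by 3 (Alb, Cp and Fga, 6.122%) against 0.8659% of all and 0.7119% of measured genes. TTNNGCAA was held by 14 (28.57%) against 10.84% and 9.801%, and TATAAA by 7 (14.29%) against 14.33% and 8.946%. The HNF4-type CAAAGTCCA was held by 0 members against 0.4514% and 0.5102%, and the palindrome TTGCGCAA by 0 against 0.185% and 0.2848%. Both fibrinogen promoters held GTTAAT and the C/EBP letters, the Hpx and C3 promoters held TTNNGCAA without GTTAAT, and the Serpina1a promoter held GTTAAT alone. The letters did not sort members by direction. Apoa2 and Apob, called lower in periportal IBA1+ segments of WT mice, also held TTNNGCAA without GTTAAT. Cp, which rose in the parenchyma, held both GTTAATNAT and TTNNGCAA. These are letter matches within these windows only.

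In periportal IBA1+ segments the summed counts of the 63 members made up 11.9% and 13.9% of counts in the WT control segments and 3.75% to 9.09% in the WT DDC segments, and 12.4% to 16.5% against 3.08% to 6.91% in TrailΔmye mice. In both genotypes the DDC segments lay below all control segments. In PanCK+ segments the shares were 5.43% to 7.90% and 4.02% to 5.49% in control and DDC-fed WT mice, and 5.57% to 10.8% and 2.49% to 6.55% in TrailΔmye mice, with overlap in both. In the parenchyma the WT control segment was at 12.7%, the WT DDC segments at 14.9% and 17.1%, the TrailΔmye control segments at 14.2% and 14.3%, and the TrailΔmye DDC segments at 8.06% and 10.6%. The parenchymal shares therefore lay higher with DDC in WT and lower with DDC in TrailΔmye mice. Alb alone accounted for 0.548% to 7.46% of counts, and the members without Alb for 1.94% to 10.7%.

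**Figure D1:**
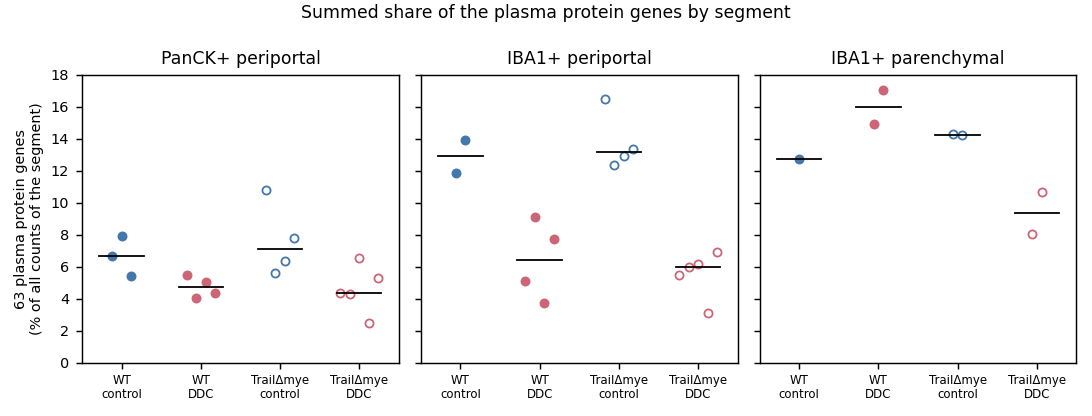
Summed counts of the 63 plasma protein genes as a percent of all counts of the segment (y axis, from 0), 1 point per segment, by segment class, genotype (WT filled, TrailΔmye open) and diet (control blue, DDC red), with a line at the group median. The periportal IBA1+ segments of DDC-fed mice sit between 3.08% and 9.09%, below every periportal IBA1+ control segment (11.9% to 16.5%).

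The effect of the DDC diet on each segment class was tested within each genotype, as a log2 fold change of DDC over control with edgeR's quasi-likelihood test over all 10547 genes. Levels are given as the deposited Q3-normalized values, which set the 75th percentile of every segment to the same value. Before scaling that percentile was 2 to 80 counts, so in segments with few counts the factor changed in coarse steps. Among periportal IBA1+ segments it was 2 in WT control ROI 5 (35207 counts in total) and 3 in WT DDC ROI 13 (34302 counts). The upper-quartile factors of the edgeR fits rest on this percentile too, whereas scaling by total counts, given as an alternative, does not. In PanCK+ segments of WT mice 1 member rose (0.493% of all genes rose) and 3 fell (0.417% of all genes fell), and in TrailΔmye mice 2 rose (1.43%) and 5 fell (0.664%). The median log2 fold change of the members was -0.41 beside -0.17 for all genes in WT and -0.32 beside 0.18 in TrailΔmye mice. The median of all genes moved with the scaling, to 0.02 with TMM factors in WT and to -0.15 with DESeq2 size factors in TrailΔmye mice, and the members' medians stayed below it, at -0.21 and -0.59. At an unadjusted p under 0.05 there were 20 and 23 members, beside 675 and 1188 of all 10547 genes. The 15 hepatocyte genes that are not secreted had medians of -0.76 in WT and -0.35 in TrailΔmye mice. Of them 1 and 2 were called lower.

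Serpina3k, a plasma serpin of the multi-gene mouse Serpina3 cluster, fell in PanCK+ segments of both genotypes. Its Q3 values were 389, 594 and 462 in WT control and 151, 77.7, 110 and 96.6 in WT DDC segments, and 546, 244, 236 and 403 in TrailΔmye control and 98.6, 89.6, 106, 36.6 and 81.9 in TrailΔmye DDC segments. No DDC value reached the lowest control value. The log2 fold changes were -2.17 ± 0.36 (adjusted p = 1.9e-05) and -2.12 ± 0.30 (adjusted p = 2.12e-07). The value after ± is, here and below, only an approximate standard error (SE). It is the absolute log2 fold change divided by the square root of edgeR's F statistic, not an error estimated by the fit. Apoa2, a structural protein of high-density lipoprotein, was the other member called in both genotypes, with log2 fold changes of -1.69 ± 0.35 (adjusted p = 0.00146) and -1.37 ± 0.30 (adjusted p = 0.00163). These 2 shared calls were 50% of the 4 WT calls and 28.57% of the 7 TrailΔmye calls, and the overlap over all genes was not computed. The WT call of Apoa2 was lost without the WT control ROI 3 (adjusted p = 0.0584).

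C3, the central complement component, rose in PanCK+ segments of WT mice. Its Q3 values were 112, 137 and 78.8 in WT control segments and 472, 433, 530.5 and 510.5 in WT DDC segments. The groups were well separated, at a log2 fold change of 2.13 ± 0.39 (adjusted p = 0.00014). In TrailΔmye mice the values were 214, 158, 200 and 288 with control diet and 447, 386, 600, 181 and 517 with DDC, where only ROI 35 fell among the controls, and the log2 fold change of 0.98 ± 0.30 had an adjusted p of 0.0667. The difference between the genotypes was -1.15 ± 0.48 (adjusted p = 1). The other complement members were not called in either genotype.

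Hp, which binds free haemoglobin, rose in PanCK+ segments of TrailΔmye mice. Its Q3 values were 84.0, 36.8, 34.1 and 60.9 with control diet and 182, 160, 361, 86.5 and 201 with DDC, all above the controls, at a log2 fold change of 1.89 ± 0.35 (adjusted p = 9.41e-05). In WT mice Hp was at 49.0, 57.8 and 42.0 with control diet and at 178, 96.6, 123 and 185 with DDC, also without overlap, at 1.53 ± 0.44 (adjusted p = 0.068). Serpina3n, an inhibitor of leukocyte proteases, rose in TrailΔmye mice as well, from 14.0, 10.5, 2.63 and 18.9 to 34.7, 30.8, 61.7, 24.6 and 29.0, again without overlap, at 1.60 ± 0.40 (adjusted p = 0.00895). That call was lost without control ROI 27 (adjusted p = 0.057), control ROI 28 (0.144) or DDC ROI 34 (0.0546), and with TMM (0.0578), DESeq2 (0.105) or thinning of all segments to 1 total (0.651, at a log2 fold change of 0.89). The Serpina3n value of 2.63 in control ROI 28 is 1 count, the floor of the table. In WT mice Serpina3n overlapped between diets, at 0.45 ± 0.53 (adjusted p = 0.973).

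Among the other members called in PanCK+ segments of TrailΔmye mice, Alb, the main osmotic protein of plasma, had Q3 values of 6166.0, 2195.4, 2450.1 and 3789.9 with control diet and 1349, 1423, 2301, 603 and 1837 with DDC. DDC ROI 34 lay among the controls, and the log2 fold change was -1.28 ± 0.28 (adjusted p = 0.00225), which was not called without control ROI 26 (adjusted p = 0.135). Serpina6, the corticosteroid-binding globulin, fell by 1.82 on the log2 scale (SE 0.44, adjusted p = 0.0158), and this was not called without ROI 26 (0.521) or ROI 27 (0.0578), or after thinning (0.541). Plg, the precursor of plasmin, was at -1.01 ± 0.30 with an adjusted p of 0.0495, and 12 of the 16 single omissions and limma (0.0634) ended its call. In WT mice Serpina1a, which inhibits neutrophil elastase, was at -1.45 ± 0.39 (adjusted p = 0.0396), and 9 of 16 single omissions ended its call, with adjusted p values up to 0.709 without control ROI 3, as did TMM (0.171). Without ROI 35 the number of called members was 8 in WT and 12 in TrailΔmye mice, and without WT control ROI 3 the WT number was 2.

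Of the 61 plasma protein genes listed beside the members, edgeR called 0 in PanCK+ segments of WT mice. The unadjusted p was under 0.05 for 7, beside 675 of all 10547 genes. In TrailΔmye mice 4 were called. Saa1, an acute phase apolipoprotein, rose at 2.25 ± 0.49 on the log2 scale (adjusted p = 0.0019) and Cfb, of the alternative complement pathway, at 1.87 ± 0.49 (adjusted p = 0.0296). Mbl2, a mannose-binding lectin, was at -2.0 ± 0.27 (adjusted p = 5.07e-08) and Pon1, an enzyme of high-density lipoprotein, at -1.68 ± 0.35 (adjusted p = 0.0009).

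In periportal IBA1+ segments the members mostly fell with DDC. In WT mice 19 of 63 fell (1.04% of all genes fell) and 0 rose (0.142%). There 38 members had an unadjusted p under 0.05, beside 537 of all 10547 genes. In TrailΔmye mice 37 fell (5.18%) and 1 rose (4.2%). The median log2 fold change of the members was -1.30 in WT and -1.14 in TrailΔmye mice, beside -0.16 and 0.07 for all genes. With total counts as the scaling the median of all genes in WT was 0.29 and that of the members -0.84. By role, 7 and 8 of the 12 apolipoproteins fell in WT and TrailΔmye mice, 2 and 3 of the 8 carriers, 3 and 12 of the 15 clotting genes, 5 and 9 of the 16 serpins, 0 and 3 of the 5 Itih genes, and 2 and 2 of the 7 complement genes. Of the WT calls, 16 were also TrailΔmye calls in the same direction (84.21% of 19 and 42.11% of 38). As 37 of 63 members fell in TrailΔmye mice, many WT calls would be shared in any case. The overlap over all genes was not computed.

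The WT calls rested on 2 control segments. Without WT control ROI 5 only 1 member, Serpina3k, was called, and without WT DDC ROI 7 or ROI 11 there were 11 and 10. With TMM 8 WT members were called and with total counts 9. Among the members named here both ended the calls of Alb, Apob, Fga, Fgg, Plg, Serpinc1 and Ttr, TMM that of Serpina1a (adjusted p = 0.0581) and total counts that of C8b (0.0804). The TrailΔmye count was 19 after thinning and ranged from 34 to 39 over the single omissions. The 15 hepatocyte genes that are not secreted fell in the same segments, 9 of them in WT and 12 in TrailΔmye mice, and their summed share was 0.876% and 1.15% in WT control against 0.271% to 0.449% in WT DDC segments and 1.19% to 1.42% against 0.384% to 0.657% in TrailΔmye mice. The 10 fibroblast and stellate cell markers summed to 0.0369% to 0.200% of counts in the control segments and 0.575% to 1.35% in the DDC segments, and the 10 cholangiocyte markers to 0.0308% to 0.0379% and 0.105% to 0.321%. What part these shares, or Gm21783 in TrailΔmye mice, had in the members' values was not tested.

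**Figure D2:**
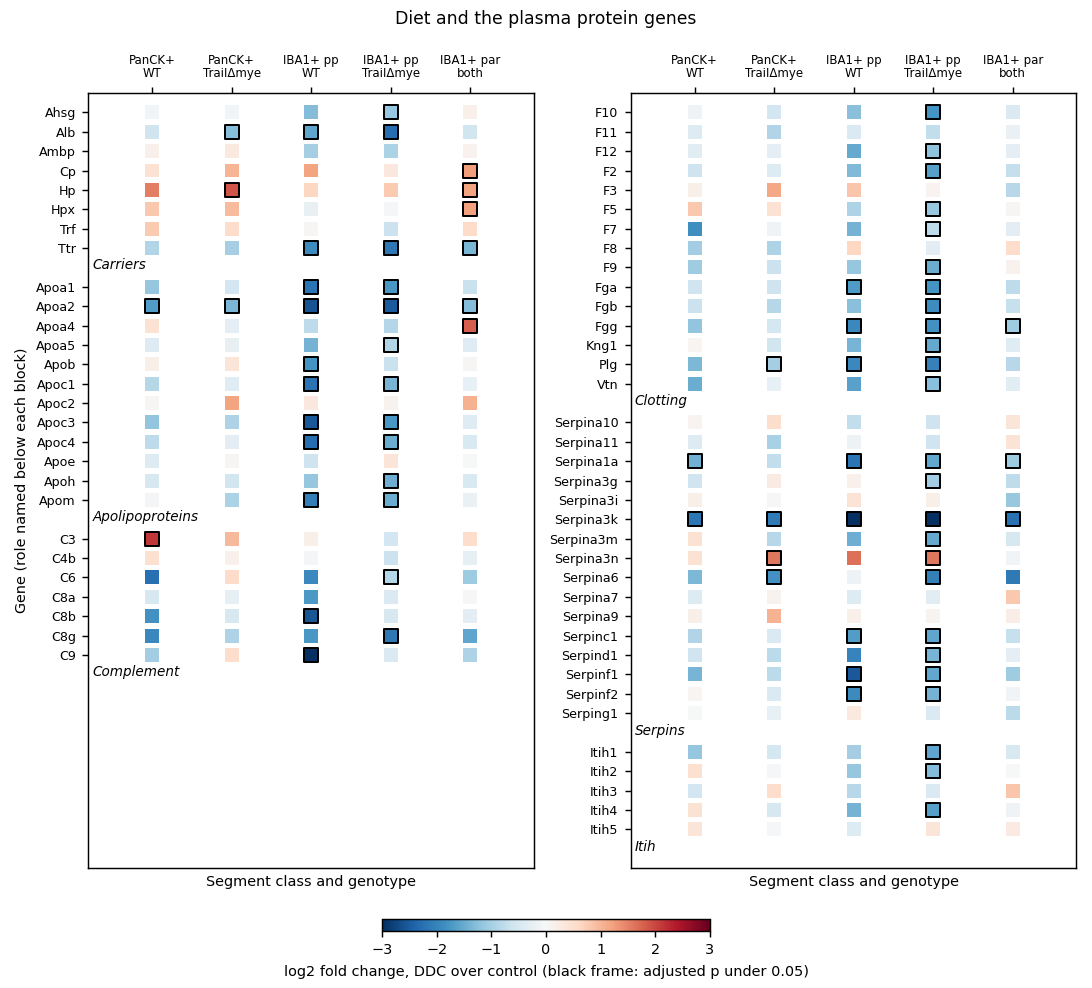
Log2 fold change of DDC over control for each of the 63 members (rows, grouped by role) in the 5 diet comparisons (columns; pp is periportal and par is parenchymal), as colour from blue (lower) to red (higher), with the colour scale ending at 3 in both directions and a black frame where the adjusted p was under 0.05. Blue prevails in both periportal IBA1+ columns, with medians of -1.30 in WT and -1.14 in TrailΔmye mice, and Serpina3k and Apoa2 are framed in all 5 columns.

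Among the carriers, Alb had Q3 values of 5530.5 and 7242.7 in WT control and 1764.7, 3524.2, 966.4 and 2342.4 in WT DDC segments of the periportal IBA1+ class. In TrailΔmye mice Alb was at 10537.5, 7339.8, 8296.4 and 7339.8 with control diet and at 1586.8, 1948.9, 1987.9, 721.2 and 2408.5 with DDC. The groups did not overlap in either genotype, at log2 fold changes of -1.57 ± 0.39 (adjusted p = 0.0235) and -2.28 ± 0.32 (adjusted p = 4.58e-07). The WT call of Alb was lost without control ROI 5 (adjusted p = 0.914) or ROI 3 (0.0933) and without DDC ROI 7 (0.127), ROI 11 (0.124) or ROI 13 (0.0965). Ttr, which carries thyroxine and retinol-binding protein, fell as well, by log2 fold changes of -1.91 ± 0.43 (adjusted p = 0.00705) and -2.16 ± 0.33 (adjusted p = 1.86e-06), and its WT call was lost without control ROI 5 (adjusted p = 0.938). Hp was at 0.65 ± 0.50 and 0.78 ± 0.35 (adjusted p = 0.938 and 0.178), Hpx, which binds haem, at -0.23 ± 0.47 and -0.03 ± 0.34 (0.938 and 0.998), and Cp, the copper ferroxidase, at 1.20 ± 0.60 and 0.33 ± 0.32 (0.938 and 0.657).

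Among the apolipoproteins, Apoa2 had Q3 values of 1008 and 1891 in WT control, 163, 399, 137 and 266 in WT DDC, 1292, 998, 1058 and 1133 in TrailΔmye control and 198, 216, 214, 99.1 and 252 in TrailΔmye DDC periportal IBA1+ segments. Every DDC value was below every control value. The log2 fold changes were -2.58 ± 0.41 (adjusted p = 3.94e-05) and -2.52 ± 0.33 (adjusted p = 8.82e-08), and the WT call was lost without control ROI 5 (adjusted p = 0.0513). Apoa1, the main protein of high-density lipoprotein, was at -2.19 ± 0.42 (adjusted p = 0.000762) and -1.76 ± 0.33 (adjusted p = 0.000108), and Apoc3, an inhibitor of lipoprotein lipase, at -2.53 ± 0.46 (adjusted p = 0.000319) and -1.76 ± 0.33 (adjusted p = 8.22e-05). The WT calls of these genes were also lost without ROI 5 (adjusted p = 0.193 and 0.0781). Apob, the protein of very-low-density lipoprotein, was called in WT mice at -1.80 ± 0.46 (adjusted p = 0.0273; 0.938 without control ROI 5, 0.0884 without DDC ROI 7, 0.103 without ROI 11 and 0.056 without ROI 13) and was at -0.67 ± 0.30 in TrailΔmye mice (adjusted p = 0.177).

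Neighbouring apolipoprotein genes of chr7:19671579-19701310 (GRCm38.p6, 29.73 kb) differed from each other. Apoc1 fell in periportal IBA1+ segments at log2 fold changes of -2.19 ± 0.43 (adjusted p = 0.00115) in WT and -1.39 ± 0.33 (adjusted p = 0.00265) in TrailΔmye mice, and Apoc4 at -2.30 ± 0.58 (adjusted p = 0.0237) and -1.49 ± 0.27 (adjusted p = 6.38e-05). Apoe, a ligand of lipoprotein receptors and a macrophage product, had Q3 values of 1139.7 and 1785.7 in WT control, 614.5, 1187.0, 740.5 and 1250.0 in WT DDC, 1133, 906, 968 and 939 in TrailΔmye control and 1376.7, 1320.3, 1417.4, 639.0 and 1703.9 in TrailΔmye DDC segments. The diets overlapped in both genotypes, at -0.62 ± 0.40 (adjusted p = 0.938) and 0.39 ± 0.31 (adjusted p = 0.536), and Apoc2, the activator of lipoprotein lipase, was at 0.31 ± 0.55 and 0.10 ± 0.35 (adjusted p = 0.938 and 0.956). As a ratio chosen after its values were seen, and given with no test, Apoe counts per 100 Apoc1 counts were 110 to 176 in the 6 control and 301 to 584 in the 9 DDC periportal IBA1+ segments, and 156 to 226 and 192 to 319 in PanCK+ segments. Without WT control ROI 5 the WT call of Apoc1 was lost (adjusted p = 0.914).

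Among the clotting genes, the fibrinogen chains Fgb, Fga and Fgg lie together at chr3:83007724-83049863 (42.14 kb) and moved together in periportal IBA1+ segments of TrailΔmye mice, at log2 fold changes of -1.88 ± 0.33, -1.79 ± 0.31 and -1.82 ± 0.35 (adjusted p = 2.75e-05, 2.33e-05 and 0.000117). In WT mice Fga was at -1.71 ± 0.43 (adjusted p = 0.0242), Fgg at -1.92 ± 0.49 (adjusted p = 0.0261) and Fgb at -1.26 ± 0.45 (adjusted p = 0.301), and the calls of Fga and Fgg were lost without control ROI 5 (adjusted p = 0.744 and 0.938) or DDC ROI 11 (0.105 and 0.12), that of Fga also without control ROI 3 (0.066) or DDC ROI 7 (0.0975) and that of Fgg also without DDC ROI 13 (0.115). Fga had Q3 values of 257 and 336 in WT control, 68.3, 110, 57.8 and 122 in WT DDC, 373, 236, 307 and 232 in TrailΔmye control and 82.8, 86.5, 106, 44.2 and 96.04 in TrailΔmye DDC segments, with no overlap. Plg was called in both genotypes, at -1.92 ± 0.46 (adjusted p = 0.0138; 0.367 without control ROI 5, 0.0649 without ROI 3, 0.0529 without DDC ROI 7 and 0.0829 without ROI 11) and -2.03 ± 0.30 (adjusted p = 1.41e-06). F2, prothrombin, was at -1.34 ± 0.46 (adjusted p = 0.228) and -1.66 ± 0.31 (adjusted p = 0.000102), and Kng1, the kininogen, at -1.40 ± 0.45 (adjusted p = 0.147) and -1.54 ± 0.31 (adjusted p = 0.000232, and 0.0771 after thinning). F3 was at 0.82 ± 0.91 and 0.08 ± 0.36 (adjusted p = 0.938 and 0.977), with 1 to 3 counts in the WT segments of this class.

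Among the serpins, 10 Serpina genes lie within chr12:103616675-104414334 (797.7 kb) and did not move as a block. Serpina3k showed the lowest log2 fold changes of the members in TrailΔmye mice, -3.03 ± 0.34 (adjusted p = 2.01e-09), and was at -3.35 ± 0.43 in WT mice (adjusted p = 3.06e-07). Its Q3 values in periportal IBA1+ segments were 1134.5 and 1932.8 in WT control, 137, 200, 63.03 and 196 in WT DDC, 949, 699.8, 752 and 682 in TrailΔmye control and 95.2, 126, 115, 42.2 and 96.8 in TrailΔmye DDC segments. The highest DDC value was thus less than the lowest control value in each genotype. Serpina3n, its neighbour, had values of 21.0 and 47.3 in WT control, 99.8, 73.5, 94.5 and 154 in WT DDC, 31.5, 36.8, 44.0 and 38.1 in TrailΔmye control and 142, 112, 138, 76.1 and 113 in TrailΔmye DDC segments. All DDC values of Serpina3n were above all control values, and it rose in TrailΔmye mice at 1.61 ± 0.31 (adjusted p = 0.000165), the only member called higher there, and was at 1.65 ± 0.54 in WT mice (adjusted p = 0.181). Whether probes of the near-identical Serpina1 and Serpina3 paralogs tell them apart was not stated by the labels or methods.

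As a ratio of these neighbours within a segment, chosen after their values were seen and given with no test, Serpina3n counts per 100 Serpina3k counts were 1.85 to 5.85 in the control and 36.8 to 180.3 in the DDC periportal IBA1+ segments. In PanCK+ segments the ratio was 1.11 to 5.41 and 11.5 to 67.0, and in the parenchyma 3.18 to 4.33 and 5.80 to 36.0. The diets were separated in every class. Of the other serpins, Serpina1a fell in periportal IBA1+ segments at -2.19 ± 0.48 in WT (adjusted p = 0.00466, and 0.938 without control ROI 5) and -1.55 ± 0.35 in TrailΔmye mice (adjusted p = 0.00118). Serpinf1, known as pigment epithelium-derived factor, was at -2.55 ± 0.51 (adjusted p = 0.00145, and 0.081 without ROI 5) and -1.55 ± 0.27 (adjusted p = 2.1e-05; -0.53 with an adjusted p of 0.716 after thinning), and Serpinc1, antithrombin, at -1.66 ± 0.45 (adjusted p = 0.043, lost in 11 of 15 single omissions, up to 0.914 without ROI 5) and -1.58 ± 0.32 (adjusted p = 0.000269). Serpina6 fell in TrailΔmye mice at -2.04 ± 0.26 (adjusted p = 4.17e-08), from 21.0, 18.4, 15.8 and 22.3 to 6.18, 0.808, 3.94, 5.55 and 3.00. After thinning to the smallest total its log2 fold change was -0.85 and not called (adjusted p = 0.636). Serping1, the C1 inhibitor, was at 0.30 ± 0.49 and -0.44 ± 0.29 (adjusted p = 0.938 and 0.421).

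Of the complement members, C9 and C8b, which build the membrane attack complex, fell in periportal IBA1+ segments of WT mice at -3.52 ± 0.62 (adjusted p = 0.000244) and -2.56 ± 0.54 (adjusted p = 0.00762). These rest on few counts: C9 had 26 counts of 61587 in the control and 5 of 100674 in the DDC segments, and C8b had 16 and 6. The DDC counts were 1 or 2 per segment, at or next to the floor of the table, so the size of these differences is not fixed by the data. Both calls were lost without control ROI 5 (adjusted p = 0.46 for C9 and 0.914 for C8b). In TrailΔmye mice the called complement members were C8g at -2.18 ± 0.25 (adjusted p = 2.06e-09) and C6 at -0.89 ± 0.26 (adjusted p = 0.0159). C3 was at 0.18 ± 0.43 and -0.55 ± 0.31 in WT and TrailΔmye mice (adjusted p = 0.938 and 0.311), and C4b at -0.06 ± 0.52 and -0.64 ± 0.29 (0.94 and 0.182).

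Of the 61 further plasma protein genes, 4 fell in WT and 34 fell and 1 rose in TrailΔmye mice in periportal IBA1+ segments. Orm2, an orosomucoid and acute phase protein, rose at 1.31 ± 0.30 (adjusted p = 0.0015). The lowest were Mbl2 at -3.14 ± 0.27 (adjusted p = 3.59e-13) and Igfbp2, an insulin-like growth factor binding protein, at -2.35 ± 0.27 (adjusted p = 4.92e-09) in TrailΔmye mice, and Masp2, a lectin pathway protease, at -2.49 ± 0.49 (adjusted p = 0.00136) and Mbl2 at -2.42 ± 0.62 (adjusted p = 0.0274) in WT mice.

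**Figure D3:**
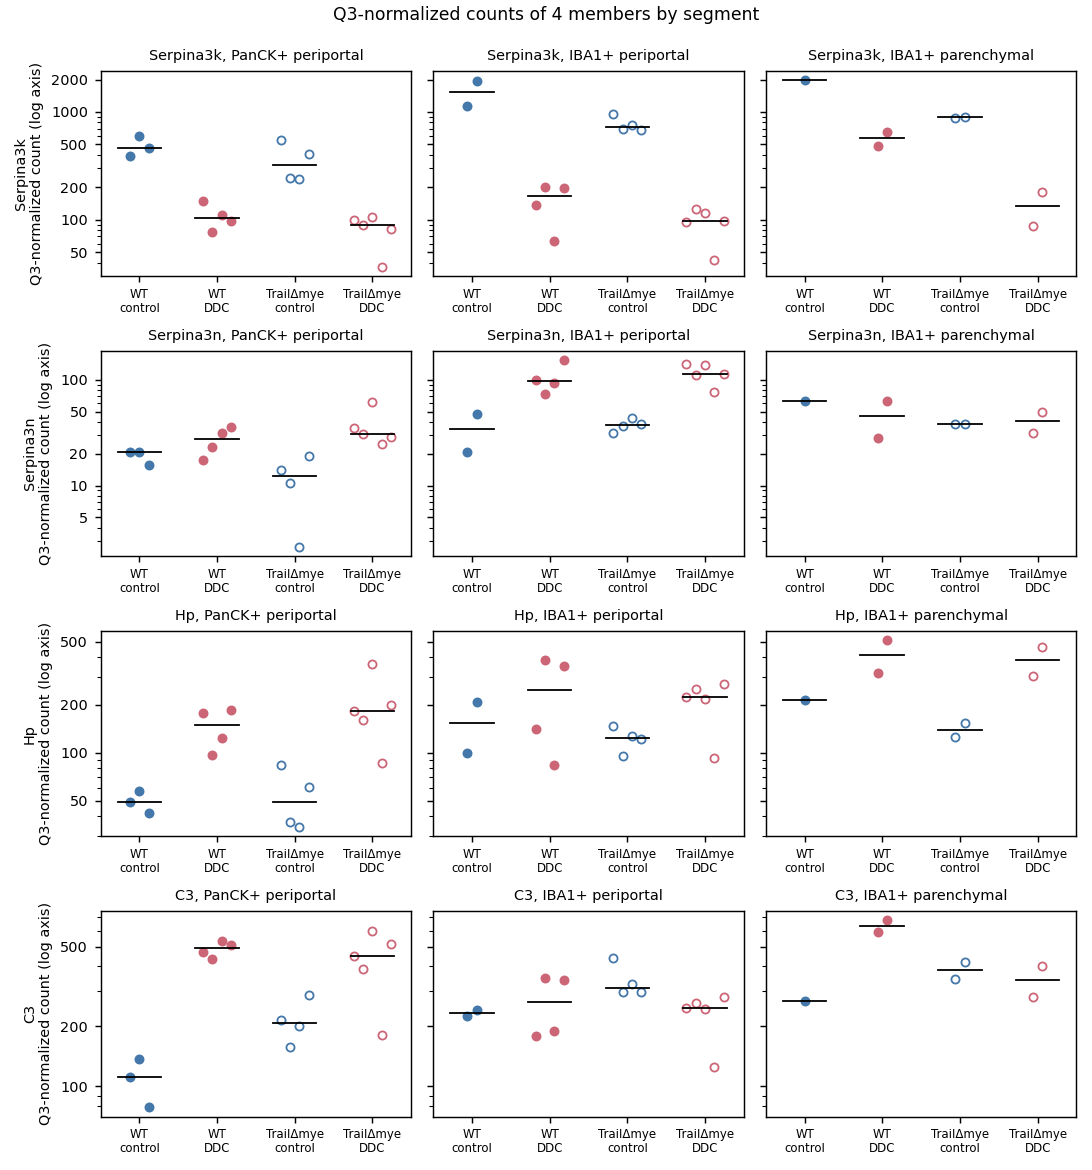
Q3-normalized counts (log axes) of Serpina3k, Serpina3n, Hp and C3, 1 point per segment, by segment class (columns), genotype (WT filled, TrailΔmye open) and diet (control blue, DDC red), with a line at the group median. Serpina3k is lower in every DDC-fed group, from 1134.5 and 1932.8 to at most 200 in periportal IBA1+ segments of WT mice, whereas Serpina3n is higher there and C3 is higher in the PanCK+ segments of WT mice.

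In parenchymal IBA1+ segments, with 3 control and 4 DDC segments, the diet effect was the mean of the effects in the 2 genotypes, of which the WT effect rests on 1 control segment. By this measure 4 members rose (0.303% of all genes rose) and 5 fell (0.607%). An unadjusted p under 0.05 was reached by 25 members, beside 590 of all 10547 genes. The 15 non-secreted hepatocyte genes had a median of -0.72, with 3 called lower. The median was -0.31 for the members and -0.20 for all genes, and with total counts as the scaling -0.02 and 0.09. Those that rose were 3 carriers and Apoa4. Apoa4, an apolipoprotein of triglyceride-rich particles, was at 89.3 in the WT control segment, 259 and 384 in WT DDC, 53.7 and 45.3 in TrailΔmye control and 130 and 194 in TrailΔmye DDC segments. All DDC values exceeded all control values, at a log2 fold change of 1.80 ± 0.29 (adjusted p = 2.9e-05). Hpx, at 221, then 718 and 774, then 272 and 269, then 354 and 512 in the same order, also showed no overlap, at 1.22 ± 0.24 (adjusted p = 0.00122). Hp rose at 1.21 ± 0.26 (adjusted p = 0.00309, and 0.0918 without TrailΔmye control ROI 30) and Cp at 1.26 ± 0.32 (adjusted p = 0.0319), a call lost without WT DDC ROI 12 (0.0946), control ROI 30 (0.208) or control ROI 31 (0.39).

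The 5 members that fell in the parenchyma were Serpina3k, Ttr, Apoa2, Fgg and Serpina1a. Serpina3k was at 1980 in the WT control, 483 and 651 in WT DDC, 886 and 893 in TrailΔmye control and 87.5 and 181 in TrailΔmye DDC segments, with no overlap, at a log2 fold change of -2.25 ± 0.22 (adjusted p = 1.08e-11). Ttr was at -1.37 ± 0.24 (adjusted p = 0.000107) and Apoa2 at -1.31 ± 0.20 (adjusted p = 7.03e-06). Fgg was at -1.08 ± 0.25 (adjusted p = 0.01) and Serpina1a at -1.06 ± 0.24 (adjusted p = 0.00769), and both calls were lost without control ROI 30 (adjusted p = 0.104 and 0.128) or ROI 31 (0.197 and 0.0882), with TMM (0.117 and 0.117) and with total counts (0.0583 and 0.0501). After thinning 0 members were called in the parenchyma. The count of called members was 5 without ROI 30 and 16 without TrailΔmye DDC ROI 38. The only WT control segment could not be left out, as the comparison needs it. Serpina3k and Apoa2 were the members called in all 5 diet comparisons. Of the further plasma protein genes, Lrg1, an acute phase glycoprotein, rose at 1.58 ± 0.37 (adjusted p = 0.011), and Lect2 and Igf1, a chemotactic factor and a growth factor made by hepatocytes, were at -2.35 ± 0.61 (adjusted p = 0.0332) and -1.41 ± 0.32 (adjusted p = 0.00909).

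Because the share of hepatocyte RNA differed between segments, the members were also set against Alb within each segment, as counts per 100 Alb counts. The choice was made after the values were seen, the genotypes were pooled and no test was made. In PanCK+ segments 6 of 62 members lay above every control segment in all 9 DDC segments (5.41% of all genes did so): C3, Cp, F5, Hp, Hpx and Trf. In periportal IBA1+ segments 12 of 62 members did, a smaller share than the 44.3% of all genes, and in the parenchyma 13 (5.09%). Hp, Hpx, Cp, C3 and Trf were among them in all classes. Alb itself was called lower with DDC in periportal IBA1+ segments of both genotypes, so these ratios also hold its change. Serpina3k was the only member below every control segment in PanCK+ (0.0379%) and periportal IBA1+ segments (0.0379%), and was joined by Serpina6 and Ttr in the parenchyma (0.493%).

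Hp counts per 100 Alb counts were 1.36 to 2.29 in control and 7.06 to 15.7 in DDC PanCK+ segments, 1.31 to 2.90 and 8.04 to 15.1 in periportal IBA1+ segments, and 1.40 to 2.97 and 4.15 to 12.3 in the parenchyma. Hpx counts per 100 Alb counts were 2.27 to 4.59 and 7.66 to 19.9, 2.72 to 6.67 and 11.0 to 17.5, and 3.04 to 3.22 and 7.57 to 14.3 in the same order. The ranges of the diets were separate in each class. C3 per 100 Alb counts reached 23.3 to 37.5 in DDC PanCK+ segments, against 3.46 to 8.15 in the controls and 9.84 to 19.6 in DDC periportal IBA1+ segments. Fga did not separate the diets in any class, at 2.99 to 7.16 and 3.78 to 6.54 in PanCK+, 3.17 to 4.65 and 3.13 to 6.13 in periportal IBA1+ and 3.63 to 4.92 and 2.68 to 4.81 in parenchymal segments.

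**Figure D4:**
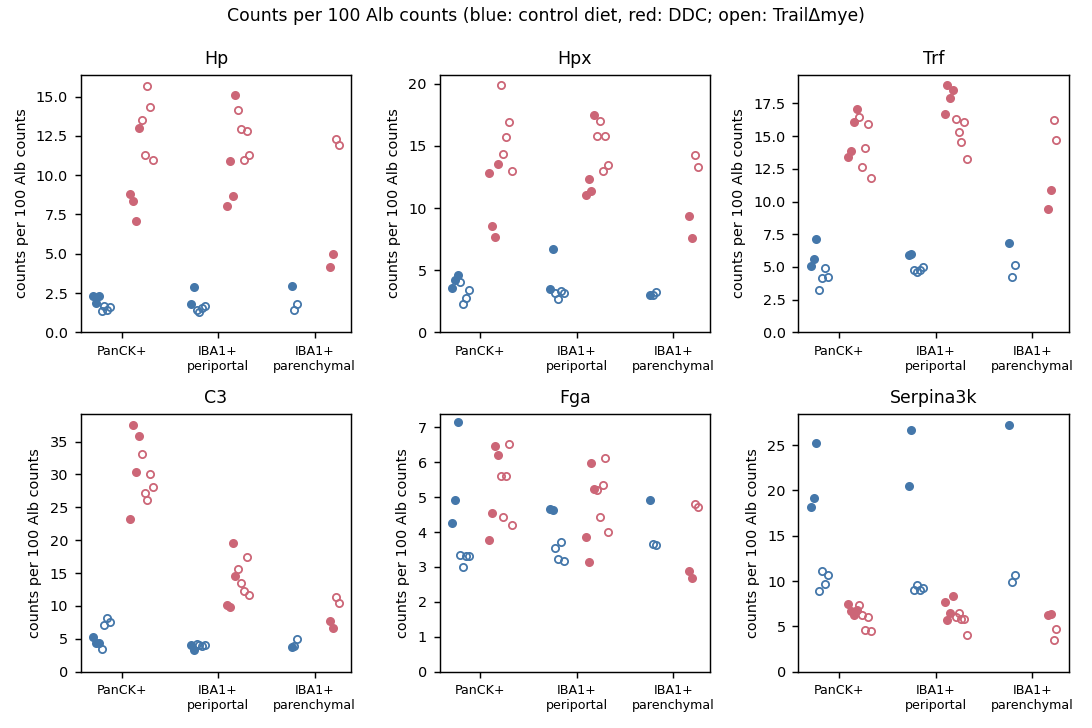
Counts per 100 Alb counts (linear axes from 0) of Hp, Hpx, Trf, C3, Fga and Serpina3k, 1 point per segment, by segment class and diet (control blue, DDC red, TrailΔmye open points). For Hp the control segments sit at 1.31 to 2.97 and the DDC segments at 4.15 to 15.7, and for Serpina3k the DDC segments sit at 3.54 to 8.37, below the control segments at 8.86 to 27.3.

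The effect of myeloid Trail deletion was tested within each diet, as TrailΔmye over WT, together with the difference of the diet effect between genotypes. In PanCK+ segments edgeR called 0 members with DDC (0.152% of all genes were called), 0 with control diet (0.218%) and 0 for the difference (0.114%). Its unadjusted p was under 0.05 for 4, 5 and 5 of 63 members, beside 974, 273 and 406 of 10547 genes. Limma called 1 member with control diet, and edgeR after a filter on low counts called 3, 1 and 1. Without ROI 35 edgeR called 2 with DDC. In periportal IBA1+ segments edgeR called 0 members with DDC (0.019%) and 0 for the difference (0.0569%), and limma 0 and 1. By edgeR 3 and 5 members had an unadjusted p under 0.05, beside 251 and 203 of 10547 genes. With control diet edgeR called 0 higher (0.0379%) and 2 lower (0.161%) in TrailΔmye mice. Here 8 members had an unadjusted p under 0.05, beside 279 of 10547 genes. Total counts separated the genotypes under both diets in both of these classes, as given above.

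The members called lower in control TrailΔmye mice were C8b, at 31.5 and 52.5 in WT and 8.75, 13.1, 10.5 and 11.8 in TrailΔmye segments, and was at -1.91 ± 0.40 on the log2 scale (adjusted p = 0.0326), and C9, at 36.8 and 99.8 against 8.75, 23.6, 21.0 and 21.0, at -1.82 ± 0.42 (adjusted p = 0.0364). The genotypes did not overlap in either gene. The WT values rest on few counts, 16 of C8b and 26 of C9 over both segments. The WT diet calls of these genes rest on the same WT control segments, so they are not separate findings. C8a, the partner of C8b, was at -1.78 ± 0.43 (adjusted p = 0.0504). The call of C8b was lost without WT ROI 3 (adjusted p = 0.0887), WT ROI 5 (1), TrailΔmye ROI 26 (0.051) or ROI 28 (0.0686), and that of C9 without WT ROI 5 (1), TrailΔmye control ROI 26 (0.122), ROI 28 (0.0621) or ROI 29 (0.0751), or TrailΔmye DDC ROI 33 (0.0576) or ROI 34 (0.0531). Both calls were also lost with total counts (0.116 for C8b and 0.0926 for C9), that of C8b with filterByExpr (0.0575) and that of C9 with TMM (0.136) or limma (0.0951). Gm21783 separates the same groups, as given above.

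Within the 15 periportal ROIs that gave both segments, the PanCK+ segment was set against the IBA1+ segment, with the ROI as a block. Of the members, 2 were higher in PanCK+ segments (7.67% of all genes were higher) and 41 lower (10.2%). Their median was -0.57 beside -0.03 for all genes. Of 63 members 51 had an unadjusted p under 0.05, beside 2876 of 10547 genes. All 12 apolipoproteins were lower, as were 6 of 8 carriers, 8 of 15 clotting genes, 9 of 16 serpins, 4 of 7 complement genes and 2 of 5 Itih genes. The 15 non-secreted hepatocyte genes had a median of -0.74, with 13 lower. The macrophage and cholangiocyte marker shares given above separate the same segments, and their part was not tested. Without the ROI block 42 members were called in place of 43.

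Cp was higher in PanCK+ segments of 14 of the 15 ROIs, at a log2 difference of 0.85 ± 0.17 (adjusted p = 4.71e-05), and F3, which starts the extrinsic clotting cascade, in 12, at 1.1 ± 0.18 (adjusted p = 1.21e-06, and 0.561 after thinning). Serpina3n was lower in PanCK+ segments of all 15 ROIs, at -1.74 ± 0.17 (adjusted p = 2.01e-13), as were Apoe, at -1.25 ± 0.14 (adjusted p = 5.38e-11), and Serping1, at -0.91 ± 0.16 (adjusted p = 3.03e-06). C4b, which is cleaved in the classical and lectin pathways, was lower in 14, at -1.03 ± 0.18 (adjusted p = 5.02e-06). C3 and Ambp, the precursor of alpha-1-microglobulin and bikunin, were each higher in 9 of 15 ROIs, at 0.25 ± 0.18 (adjusted p = 0.394) and 0.16 ± 0.17 (adjusted p = 0.635). The Q3 values of Cp were 98.0, 121 and 116 in WT control PanCK+ segments, against 21.0 and 47.3 in the IBA1+ segments of 2 of these ROIs, and 125, 111, 180, 67.5 and 156 against 62.4, 73.5, 78.8, 37.7 and 79.5 in TrailΔmye DDC ROIs.

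The difference between the segment types changed with diet for 22 members, all with a more positive value under DDC (1.73% of all genes). More negative were 0 members (0.417% of all genes). Of 63 members 46 had an unadjusted p under 0.05, beside 1103 of 10547 genes. For the 15 non-secreted hepatocyte genes the median was 1.05, with 9 called more positive and 0 more negative. The median of the members was 0.90 beside 0.11 for all genes. With total counts as the scaling the medians were 0.59 and -0.22 and 5 members were called, with TMM 14, and after thinning 1. C3 had the largest change that was called, at 1.62 ± 0.25 on the log2 scale (adjusted p = 8.08e-06), followed by Itih2, an inter-alpha-trypsin heavy chain, at 1.32 ± 0.30 (adjusted p = 0.00497) and Apob at 1.28 ± 0.30 (adjusted p = 0.00661). Alb was at 1.06 ± 0.24 (adjusted p = 0.00617) and Serpina3k at 0.99 ± 0.25 (adjusted p = 0.0154, lost in 3 single omissions, up to 0.0745). The count was 14 without TrailΔmye control ROI 27, 12 without ROI 28 and 14 without TrailΔmye DDC ROI 34. C3 values of control segments were 214, 158, 200 and 288 in PanCK+ and 438, 298, 325 and 297 in IBA1+ segments of the same TrailΔmye ROIs, and with DDC 447, 386, 600, 181 and 517 in PanCK+ and 248, 263, 244, 126 and 281 in IBA1+ segments. C3 was thus lower in PanCK+ than in IBA1+ segments in these 4 control ROIs and higher in these 5 DDC ROIs.

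**Figure D5:**
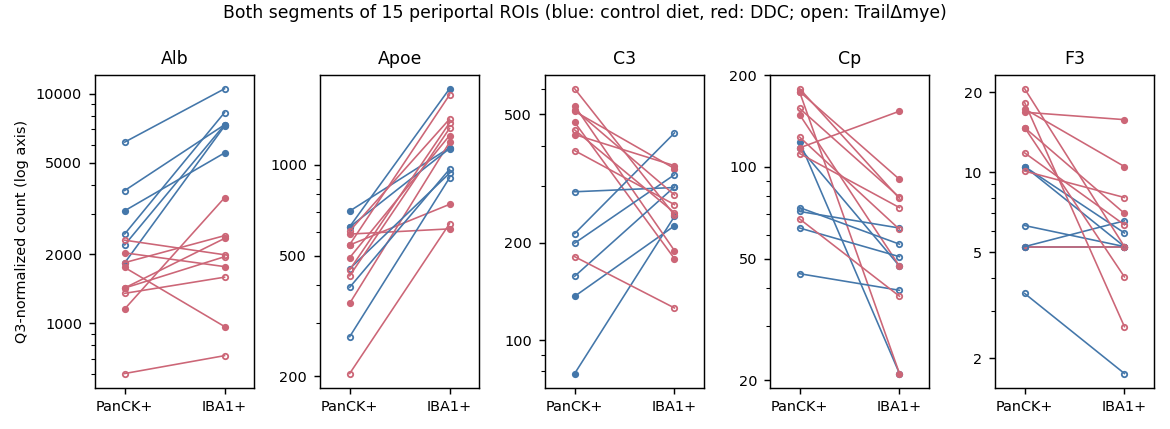
Q3-normalized counts (log axes) of Alb, Apoe, C3, Cp and F3 in the PanCK+ and the IBA1+ segment of each of 15 periportal ROIs, joined by a line per ROI (control diet blue, DDC red, TrailΔmye open points). The Apoe lines go up to the IBA1+ segment in all 15 ROIs and the Cp lines go down in 14, while the C3 lines go down in 9.

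Parenchymal and periportal IBA1+ segments were compared as the mean difference over the 4 genotype and diet groups. The median was 0.62 for the members and -0.10 for all genes. The unadjusted p was under 0.05 for 37 members, beside 617 of 10547 genes. Of the members, 13 were called higher in the parenchyma (0.92% of all genes were) and 0 lower (0.199%). They included 8 of 12 apolipoproteins, Alb, Plg, F12, Serpinc1 and Serpinf1. Apoc4 was at 1.13 ± 0.24 (adjusted p = 0.00321), Apoa2 at 1.00 ± 0.21 (adjusted p = 0.00257) and Serpinc1 at 0.99 ± 0.22 (adjusted p = 0.0048). Single omissions ended the calls of Plg and Serpinf1 in 15 cases each, of Apob in 12, Apoa4 in 10, Alb in 7, Apoa1, Apoc1, Apoc3 and Apoh in 3 each and Serpinc1 in 1. With TMM 7 members were called, with total counts 8 and after thinning 1. The count fell to 2 without TrailΔmye DDC ROI 38, to 3 without WT DDC ROI 12 or WT control ROI 3, and to 8 without TrailΔmye control ROI 27, 29 or 30. Of the 15 non-secreted hepatocyte genes 9 were higher in the parenchyma. The difference changed with diet for 1 member (0.0284%), Apoa4, at 2.61 ± 0.53 (adjusted p = 0.0192). An unadjusted p under 0.05 was reached by 29 members, beside 385 of 10547 genes. Apoa4 was at 84.0 and 142 in WT control and 99.8, 94.5, 26.3 and 45.5 in WT DDC periportal IBA1+ segments, beside 89.3 and then 259 and 384 in the parenchyma, and this call was lost in 7 single omissions, with adjusted p values up to 0.193.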

How the data were processed

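Whole-transcriptome probe counts of FFPE mouse liver segments (GeoMx) had been made by the authors with an mm10 reference and bcl2fastq, per the labels, after 18 PCR cycles. The deposited estimated counts, filtered by the authors on a limit of quantification, were rounded here (3 genes were not whole). The deposited Q3-normalized signal, scaled by the authors to a common 75th percentile, gave the levels and the alternative with limma. Groups followed the labels, and 1 row naming no gene and 0 other columns were left out. edgeR 4.0.16 (R 4.3.3) fitted 10547 genes with upper-quartile factors and a quasi-likelihood test, 1 fit per segment class, with the ROI as a block between PanCK+ and IBA1+ segments, and Benjamini-Hochberg adjustment at 0.05. Alternatives were TMM factors, total counts, DESeq2 1.42.0, limma 3.58.1 on log2(Q3 + 1), filterByExpr, thinning to 1 total (seed 33) and each segment left out. The only WT control parenchymal segment (ROI 4) was not left out, as the comparisons with parenchymal segments need it. The scripts were tested on simulated data. The members and gene lists were chosen with earlier results of these data known. The text names 33 core members and, per comparison, the 6 highest and 6 lowest called members and the 2 highest and 2 lowest called further plasma genes. Members named outside that rule were chosen after their values were seen. Totals of 20319 to 836971 counts limit the precision of low genes. PanCK+ and IBA1+ segments of the same ROI were paired by the label: their deviations from the group means correlated at -0.016 to 0.528 (median 0.0322, over 0.1 in 5 of 15 ROIs, all TrailΔmye DDC, over 3089 genes).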

Additional observations from a re-analysis of the deposited data

Results flagged for a closer look

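Of 204 sets of 4 or 5 segments (a core member or the summed share in 1 group), 4 held a segment far from the rest, where chance alone gives about 1 in 20 (10.2). Plg was at 80.5 in TrailΔmye control PanCK+ ROI 26 against 56.7 to 57.8 in the others. Serpina3n was at 61.7 in TrailΔmye DDC PanCK+ ROI 34 against 24.6 to 34.7. C3 was at 125.7 in TrailΔmye DDC periportal IBA1+ ROI 35 against 243.6 to 281.4. C9 was at 7.00 in WT DDC periportal IBA1+ ROI 13 against 5.25, which is 2 counts against 1.

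The difference between PanCK+ and periportal IBA1+ segments changed with diet by edgeR's interaction term for 22 members, as a log2 value. Among the carriers these were Ahsg (0.99), Alb (1.06), Ambp (1.26), Trf (1.01) and Ttr (1.14). Among the apolipoproteins they were Apoa1 (1.17), Apoa2 (1.03), Apob (1.28), Apoc1 (1.07), Apoc3 (1.03) and Apoc4 (1.14), and C3 was at 1.62. Among the clotting genes they were F10 (1.25), F2 (1.16), Fga (1.1), Fgg (1.02) and Kng1 (1.07). The others were Itih2 (1.32), Itih4 (1.18), Serpina3k (0.99), Serpinc1 (1.04) and Serpinf2 (1.16). Between parenchymal and periportal IBA1+ segments Apoa4 changed by 2.61 with diet.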

How the results depend on the processing

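Over the alternatives and single omissions, 2289 values of the called members singled out by the naming rule kept their call, 349 lost it and 0 reversed, and the cause was not tested. The single omissions included segments of groups outside the contrast. Such omissions barely move the estimate, so calls kept under them say little about robustness. Losses were 53 with thinning, 32 with total counts, 27 with TMM, 9 with limma, 8 with DESeq2, which gave no adjusted p for C8b in WT periportal IBA1+ segments, 5 with filterByExpr, 1 without the block and 214 with a segment left out. Low totals limited members near 1 count. The counts of called members under alternatives, here and above, come without the share of all genes called under the same alternative. The filterByExpr setting also tests fewer genes. A larger count under an alternative is therefore not read as a larger change of the members. The count of called PanCK+ diet members in WT was 14 with limma and 19 with filterByExpr (2 to 8 with 1 segment left out), and in TrailΔmye mice 12 with total counts and 25 with filterByExpr (5 to 12). PanCK+ genotype counts were 3 with filterByExpr under DDC (0 to 2), 1 with limma and 1 with filterByExpr under control diet (0 to 0), and for their difference 1 with filterByExpr (0 to 0). Periportal IBA1+ diet counts in WT were 8 with TMM, 9 with total counts, 31 with limma and 30 with thinning (1 to 22), and in TrailΔmye mice 19 with thinning (34 to 39). Periportal IBA1+ genotype counts under control diet were 1 with TMM, 0 with total counts, 1 with limma and 9 with thinning (0 to 3), under DDC 0 to 0 with 1 segment left out, and for the difference 1 each with limma, filterByExpr and thinning (0 to 1). Parenchymal diet counts were 15 with limma, 17 with filterByExpr and 0 with thinning (5 to 16). PanCK+ against IBA1+ counts were 38 to 46 with 1 ROI left out and 42 without the replicate block, and by diet 14 with TMM, 5 with total counts and 1 with thinning (12 to 30). Parenchymal against periportal counts were 7 with TMM, 8 with total counts, 27 with DESeq2, 21 with filterByExpr and 1 with thinning (2 to 19), and by diet 2 with total counts, 17 with DESeq2, 4 with limma, 2 with filterByExpr and 0 with thinning (0 to 2). The median member change in the PanCK+ genotype comparisons turned sign with TMM, from -0.06 to 0.13 under control diet, from 0.11 to -0.11 under DDC and from 0.22 to -0.20 for their difference.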
